A study of Macaca mulatta with 20 samples.

Results

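The comparison described here set the blood transcriptome of irradiated rhesus macaques at day 5 against the same replicates at day 2. It used 10 of the 20 arrays of the study, 5 of day 2 and 5 of day 5. Each day 5 array was paired with the day 2 array that carried the same replicate number in its title. The labels do not state that 1 number marks 1 animal. The animals were male Macaca mulatta that received 10 Gy of X-rays to the thorax, in a field that reached from the top of the lungs to below the xyphoid. Blood was drawn from 8 such animals into PAXgene tubes, which fix RNA at the bedside, and globin transcripts were depleted before labelling with Cy3 on Agilent Whole Human Genome 4x44K v2 arrays. Both days followed the same exposure and had no unirradiated group at the same day, so time since irradiation cannot be told apart from any other course over those days, such as repeated blood draws. By the study's methods no antibiotic or steroid was part of the treatment, and ketoprofen, buprenorphine and fluids were given where an animal needed them. The labels give no age, and the study's methods give an age range that is not tied to single arrays. By those methods the animals were of Chinese origin and came from the arm of a larger study that received no mitigator. The methods state that the RNA of 1 sample was pooled from more than 1 animal, and which sample this was is not given in the sources used here.

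Whole blood RNA is a mixture. Neutrophils, monocytes and T, B and natural killer (NK) cells transcribe their own genes, young red cells keep RNA from their nucleated precursors, and platelets carry RNA that megakaryocytes packed into them in the bone marrow. Ionizing radiation kills dividing marrow precursors and resting lymphocytes, injured tissue releases signals that mobilize myeloid cells and induce acute-phase genes, and nucleic acids in damaged cells can induce interferon, which switches on a shared set of antiviral genes in many blood cell types. All values here come from bulk blood, in which fewer cells of a type and less RNA per cell of that type cannot be told apart.

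Array signals were expressed as a log2 level, the log2 processed signal of a probe minus the 75th percentile of its array, so that a difference of 1 is a 2-fold difference. Of 34127 probes, 19961 were well above the local background on at least 5 of the 20 arrays, and these were tested. Defining transcripts of the labelled tissue were present: PF4 of platelets, CD3E of T cells, CD79A of B cells, CSF3R of neutrophils, CSF1R of monocytes and HBB of red cells were well above background on all 10 arrays. The B cell genes MS4A1 and PAX5 and the neutrophil collagenase MMP8 were on the array and did not pass the filter. The human probes were hybridized with macaque RNA, and the fit of single probes to macaque transcripts was not tested.

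One array stood apart from the rest. On the day 5 array of replicate 3, 67.3% of the spots were well above background, against 54.7% to 58.5% on the other 9 arrays, and 2725 probes were well above background there and on none of the other 9. On each of the other arrays 71 to 133 probes were detected in that way. Its 75th percentile (7.23 on the log2 scale) was the lowest of the 10. The day 5 minus day 2 change went beyond 1 on the log2 scale, in either direction, for 19.4% of the probes in replicate 3, against 2.68% to 12.6% in the other 4 replicates. The value of each gene list is therefore also given without replicate 3. Each of the 5 slides held 1 array of each group, and all day 2 arrays lay at position 2 of their slide and all day 5 arrays at position 3, so position and day cannot be told apart. The share of spots well above background was higher at day 5 in 2 of 5 pairs, by 2.29 percentage points on average (SD 5.80, exact sign-flip permutation test, two-sided p = 0.75, smallest possible 0.0625).

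No probe passed the threshold of an unadjusted p under 0.005 with a false discovery rate (FDR) under 10%, so 0% of the 19961 probes were called. The smallest Benjamini-Hochberg adjusted p in limma was 0.992, and in this fit that value applies as a lower bound to every gene named below. At an unadjusted p under 0.005 there were 57 probes (0.286% of those tested), where 99.8 would be expected with no change at all. Of these, 17 were higher (0.0852%) and 40 were lower at day 5 (0.200%). At an unadjusted p under 0.05 there were 692 probes (3.47%), against 998 expected, 367 of them higher (1.84%) and 325 lower (1.63%). A paired test of each probe by its own spread alone also called 0 probes and gave 24 with p under 0.005 and 533 with p under 0.05. Without replicate 3, limma called 0 probes and gave 50 with p under 0.005 and 568 with p under 0.05.

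**Figure D1:**
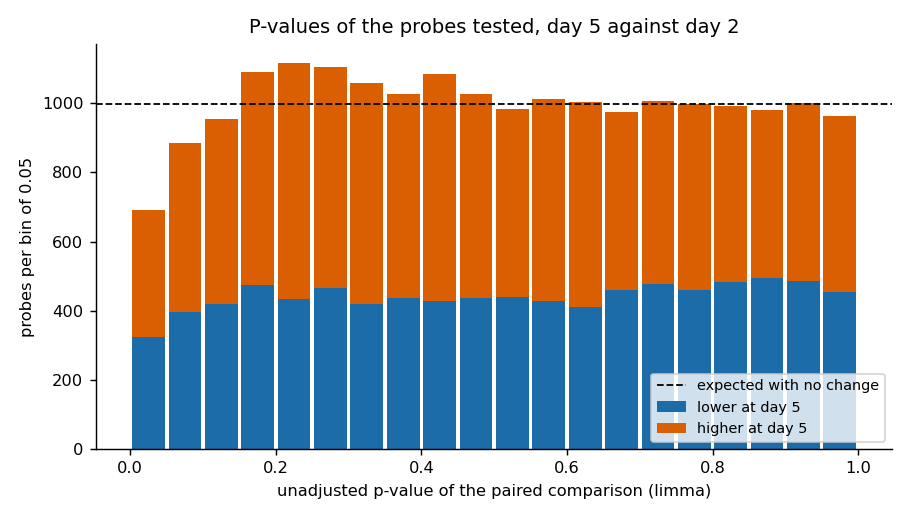
Number of probes in each bin of 0.05 of the unadjusted p-value of the paired comparison in limma, stacked by direction, for the 19961 probes tested. The dashed line is the number expected per bin with no change. The first bin holds 692 probes and lies below the line.

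The data limited the size of an average change more than they showed one. The median absolute log2 difference between the days was 0.15, and the median half-width of a probe's 95% confidence interval was 0.48. For 83.1% of the probes the whole interval lay between -1 and 1, and for 98.9% between -2 and 2. A mean difference over 1 was estimated for 158 probes, 70 higher and 88 lower at day 5, and 59 of these had the same direction in every pair measured. No probe was well above background on all 5 arrays of one day and on none of the other day.

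The 5 replicates did not share one direction of change over the transcriptome. Pearson correlations between the changes of any 2 replicates, taken over 19948 probes, which are not independent, lay between -0.32 and 0.27. Replicates 2 and 3 gave the lowest of these values and replicates 1 and 3 the highest. A common direction in every pair was found for 4.29% of the probes, 482 higher and 375 lower at day 5, where 6.25% would be expected if each pair went up or down with equal chance. The day 2 and day 5 arrays did not overlap for 25 probes (0.125%). Single groups of genes nevertheless differed in how evenly the replicates moved, and they are described in turn, each as a count and a median over its genes. Genes named for an unadjusted p under 0.05 alone were chosen after their values were seen. As a measure for these counts, over the 13718 genes with 1 probe each, 3.56% had p under 0.05, 52.5% were higher at day 5, and the median difference was 0.01.

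**Figure D2:**
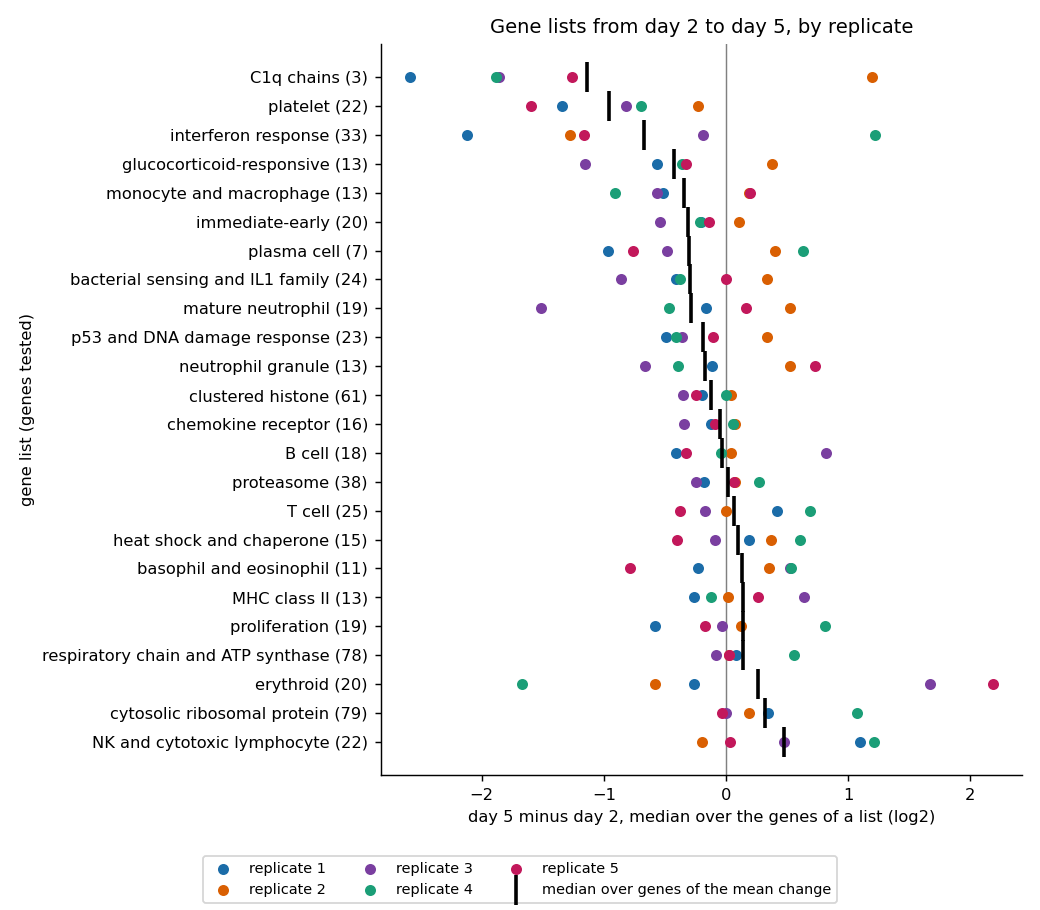
Median day 5 minus day 2 difference (log2) over the genes of each of the 24 gene lists, with the number of genes tested in parentheses, for each replicate (coloured points) and for the mean over replicates (black bars). The platelet list lies below 0 in all 5 replicates, the interferon list lies at 1.22 in replicate 4 and below 0 in the other 4, and the erythroid list spans -1.67 to 2.19.

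Platelet transcripts were the group that lay lower at day 5 in every replicate. All 22 platelet list genes tested had a lower mean at day 5, 17 of them (77.3%) with an unadjusted p under 0.05 and 9 with p under 0.005, and 12 were lower in each of the 5 pairs. The median difference over the list was -0.96. By replicate the median was -1.35, -0.23, -0.82, -0.70 and -1.59 in replicates 1 to 5, so replicate 2 moved least and replicates 1 and 5 most. The day 2 and day 5 arrays overlapped for every platelet gene tested, and the 5 day 2 arrays themselves differed widely in level. The list genes GP1BA, GP6, GP5 and MMRN1 did not pass the filter.

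ITGA2B and ITGB3 encode the 2 chains of the fibrinogen receptor, through which activated platelets bind to each other. ITGA2B had log2 levels of 1.83, -0.22, 0.09, 0.84 and 0.62 at day 2 and of 0.50, -0.48, -1.24, 0.30 and -0.97 at day 5 in replicates 1 to 5. It was lower at day 5 in each replicate, by 1.01 on average (log2 difference -1.01, SE 0.23, unadjusted p = 0.0027 in limma). ITGB3 had levels of -0.33, -2.46, -2.18, -0.95 and -0.63 at day 2 and of -2.70, -2.51, -3.74, -2.19 and -3.81 at day 5. Replicate 2 was nearly level for this gene, and the mean difference was -1.68 (SE 0.40, unadjusted p = 0.0032 in limma). The ITGB3 probe (hg19 chromosome 17, 45389027 to 45389086) was well above background on all 5 day 2 arrays and on 3 of 5 day 5 arrays, so its lower values lie near the detection limit.

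Among platelet surface receptors, C6orf25, the inhibitory receptor G6b-B of megakaryocytes and platelets, had the smallest p of the list. Its levels were 5.38, 3.52, 3.32, 4.68 and 4.57 at day 2 and 4.28, 2.74, 2.22, 3.79 and 2.90 at day 5. The differences of the 5 replicates lay between -0.78 and -1.67 (mean -1.11, SE 0.18, unadjusted p = 0.0003 in limma), a narrow range for this comparison. A second C6orf25 probe gave -0.66 (SE 0.34). GP1BB, a chain of the receptor for von Willebrand factor, had levels of 7.35, 5.09, 5.65, 6.92 and 6.51 at day 2 and of 5.76, 4.75, 3.96, 6.06 and 5.06 at day 5 (difference -1.18, SE 0.23), and its second probe gave -1.21. SELP, the adhesion molecule P-selectin that platelets store in their alpha granules, differed by -1.29 (SE 0.29), with -1.03 from a second probe. TREML1, another alpha granule receptor, differed by -0.97 (SE 0.21). Each of these 4 genes was lower in all 5 replicates, and the change was smallest in replicate 2 for C6orf25, GP1BB and SELP and in replicate 4 for TREML1.

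Genes for secreted and cytoskeletal platelet proteins lay on the same side. PF4, the chemokine platelet factor 4, had levels of 8.22, 6.52, 6.25, 7.50 and 7.88 at day 2 and of 6.43, 6.31, 5.68, 7.00 and 6.55 at day 5 (difference -0.88, SE 0.26, unadjusted p = 0.0087 in limma). It was lower in every replicate, and by 0.22 to 1.80 in size. PPBP, which encodes the chemokine precursor pro-platelet basic protein, was lower in 4 of 5 replicates and higher by 0.40 in replicate 2 (mean -0.90, SE 0.31). TUBB1, the beta tubulin of the platelet's marginal band, likewise was lower in 4 replicates and higher by 0.43 in replicate 2 (mean -1.28, SE 0.39). F13A1, the A subunit of clotting factor XIII, differed by -0.93 (SE 0.21), and the adhesion molecules ITGB5 and ESAM by -0.96 (SE 0.24) and -1.02 (SE 0.26). The remaining genes with p under 0.05 were PTGS1, MYL9, GP9, GNG11 and CLU. The genes of the list that did not reach that value were SDPR, THBS1, SPARC, CLEC1B and PDGFA, of which CLEC1B was higher at day 5 in replicates 2 and 3.

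**Figure D3:**
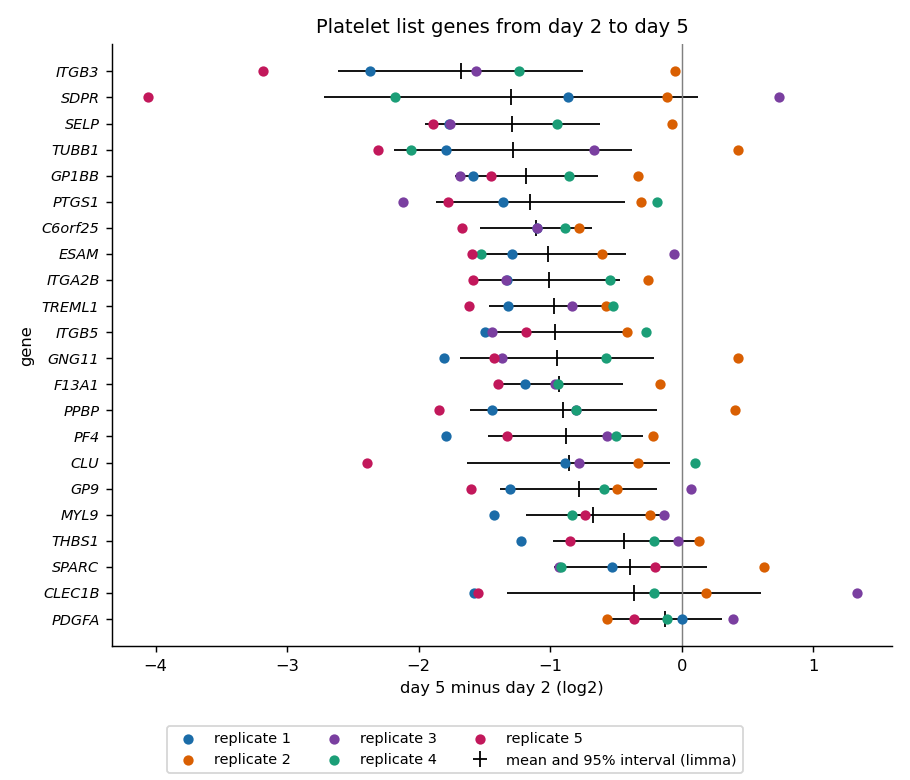
Day 5 minus day 2 difference (log2) of the 22 platelet list genes tested, with each replicate as a coloured point and the mean with its 95% interval from limma in black. All 22 means lie below 0, and the points of replicate 2 lie to the right of the mean for most genes.

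The day 5 levels of platelet genes lay between those of day 2 and those measured before irradiation. PF4 had a mean log2 level of 5.79 (SD 0.75, n = 5) before irradiation, 7.28 (SD 0.86, n = 5) at day 2, 6.39 (SD 0.48, n = 5) at day 5 and 5.68 (SD 0.16, n = 5) at day 30. ITGA2B had means of -0.83 (SD 0.62), 0.63 (SD 0.79), -0.38 (SD 0.76) and -1.20 (SD 0.59) at these 4 times (n = 5 each). Over the list, the median difference from the pre-irradiation arrays was 1.40 at day 2 and 0.34 at day 5, 2 values that share the pre-irradiation arrays with each other and the day 2 or day 5 arrays with the difference between the days.

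The platelet counts depended on the settings more than their direction did. All platelet genes tested had a mean below 0 under each of the 3 other scalings or background corrections and with each replicate left out. Without replicate 3, 16 genes had p under 0.05 and 5 had p under 0.005 (median -0.93), and these counts were 12 and 1 without replicate 1 and 13 and 2 without replicate 5. With the normexp background correction, 8 genes had p under 0.05 and 0 had p under 0.005, and the median was -0.52. Slide as a block gave 6 and 2 genes, slide as a random block 13 and 2, and the fit without the replicate block 12 and 1. The erythroid list had medians of -0.26, -0.58, 1.67, -1.67 and 2.19 in replicates 1 to 5 (20 of 20 genes tested were well above background on all 10 arrays). The median log2 level of its genes lay between 2.90 and 6.27 at day 2 and between 3.15 and 6.17 at day 5, and its part in the platelet values was not tested.

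The 10 genes with the largest decreases among those with p under 0.005 and one direction in every pair held ITGB3 and 9 genes outside the platelet list, with each gene taken at its probe of smallest p. SELP entered this ranking at -1.03, the value of its second probe, and would have been among the 10 at the -1.29 of the probe used for the list. PF4V1 encodes a variant of platelet factor 4. Its levels were 3.90, 1.92, 2.10, 3.61 and 3.58 at day 2 and 2.62, 1.75, 0.19, 2.21 and 2.03 at day 5 (difference -1.26, SE 0.26). The PF4 and PF4V1 probes, at hg19 chromosome 4 positions 74846915 to 74846974 and 74720137 to 74720196 (minus and plus strand), share no run longer than 6 bases. NRGN, which encodes the calmodulin-binding protein neurogranin, had levels of 5.16, 3.57, 3.42, 4.69 and 4.72 at day 2 and of 3.84, 2.88, 2.35, 3.22 and 2.23 at day 5. Its difference of -1.41 (SE 0.26, unadjusted p = 0.0007 in limma) was seen in each replicate, with the levels of replicates 2 and 3 lowest at day 2 as for PF4V1.

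RAB6B, a GTPase of vesicle transport, had levels of 0.30, -1.23, -0.20, 0.53 and 0.58 at day 2 and of -1.39, -1.84, -2.94, -0.89 and -1.33 at day 5 (difference -1.67, SE 0.29). RBPMS2, an RNA-binding protein, differed by -1.43 (SE 0.29) and TMEM158, a membrane protein known as a target of Ras signalling, by -1.49 (SE 0.38). At day 2 the 3 genes were highest in replicates 1, 4 and 5, the replicates with the higher PF4 and ITGA2B levels at that day. SECTM1, a secreted and membrane protein that binds the T cell molecule CD7, had another pattern. It was lower by 2.61 in replicate 2 and by 0.72 to 1.52 in the other 4 (mean -1.31, SE 0.29). The antisense transcript SLC25A30-AS1 was the only one of the 10 whose groups did not overlap, at -3.64, -3.66, -2.67, -3.57 and -2.93 at day 2 and -4.56, -3.82, -5.64, -5.93 and -5.41 at day 5. It was well above background on 3 day 2 arrays and not well above background on any day 5 array. With day 5 set at the detection floor, its day 2 mean lay 1.33-fold above it. This is not a lower bound, because the day 2 mean includes arrays without detection. CA13, a carbonic anhydrase (-1.74, SE 0.35), and DCSTAMP, a fusion protein of osteoclasts and dendritic cells (-1.21, SE 0.29), were detected on 7 and 3 of the 10 arrays.

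The 10 genes with the largest increases under the same rule had mostly dim probes. FOLR3, a secreted folate-binding protein of neutrophil granules, CHI3L1, a secreted chitinase-like protein of macrophages and neutrophils, and RNU12, a small nuclear RNA of the minor spliceosome, were well above background on all 10 arrays. FOLR3 had levels of -2.09, -3.62, -2.003, -3.35 and 0.21 at day 2 and of -1.09, -3.18, 1.04, -1.73 and 1.71 at day 5 (difference 1.52, SE 0.34). Replicate 5 was the highest on both days, and the size of the change differed between replicates. CHI3L1 had levels of -2.90, -2.40, -2.22, -3.39 and -0.64 at day 2 and of -1.49, -1.29, -1.33, -2.57 and 0.43 at day 5. Its differences were close to each other (mean 1.06, SE 0.16, unadjusted p = 0.0002 in limma), the smallest p among the 10. RNU12 had levels of -1.67, -0.29, -0.37, -1.72 and -0.13 at day 2 and of -0.30, 0.14, 0.13, 0.73 and 0.95 at day 5 (difference 1.16, SE 0.30). Without replicate 3 the FOLR3, CHI3L1 and RNU12 differences were 1.14, 1.10 and 1.33. With the normexp correction the CHI3L1 difference was 0.28 and the FOLR3 difference 0.69.

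The other genes with large increases were NIPAL4, LINC00511, SYNDIG1, FRRS1L, CFAP74, KLHL29 and ZSCAN30, detected on 0 to 3 of the 5 day 2 arrays and 3 to 5 of the 5 day 5 arrays. NIPAL4, SYNDIG1 and FRRS1L were not well above background on any day 2 array and were so on 4, 4 and 3 day 5 arrays. With day 2 set at the detection floor, their day 5 means lay 1.15-fold, 1.40-fold and 1.35-fold above it. These are not lower bounds, because the day 5 means include arrays without detection. NIPAL4 passed the filter with 1 pre-irradiation, 4 day 5 and 0 day 30 arrays. FRRS1L passed it with 1, 3 and 1 and SYNDIG1 with 1, 4 and 2, so mostly through day 5. FRRS1L, a subunit of glutamate receptor complexes in the brain, was the only one of the 10 whose groups did not overlap, at -4.81, -3.91, -4.09, -4.37 and -5.67 at day 2 and -3.81, -2.83, -2.85, -3.35 and -3.65 at day 5. Second probes of CFAP74, KLHL29 and ZSCAN30 gave 0.23, 0.11 and 0.11, against 1.18, 0.99 and 0.82 at the probes ranked. With the normexp correction the FRRS1L difference was -0.05, and those of NIPAL4, LINC00511, SYNDIG1, KLHL29 and ZSCAN30 also took the other sign.

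NK cell and cytotoxic lymphocyte genes had higher means at day 5. Of the 22 genes tested, 20 were higher and 2 lower, 6 had p under 0.05 (27.3%), all of them higher, and 0 had p under 0.005. The median over the list was 0.48. By replicate the medians were 1.10, -0.20, 0.48, 1.21 and 0.04, so replicates 1, 3 and 4 moved and replicates 2 and 5 were near level. Only KLRB1 and GZMA were higher in all 5 replicates.

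KLRB1 encodes the lectin receptor CD161 of NK cells and memory T cells. Its levels were -1.60, -1.10, -1.61, -1.02 and -0.35 at day 2 and -0.49, -0.75, -0.40, 2.15 and 0.18 at day 5 (difference 1.28, SE 0.39, unadjusted p = 0.011 in limma). Replicate 4 stood highest at day 5, and without it the difference was 0.80. GZMA, the protease granzyme A of cytotoxic granules, had levels of -2.68, -1.02, -2.74, -1.94 and -2.52 at day 2 and of -0.77, -0.87, -1.78, 0.39 and -2.23 at day 5 (difference 1.13, SE 0.34). FASLG, the death ligand of killer cells, differed by 0.92 (SE 0.29), the activating receptor KLRK1 (NKG2D) by 0.71 (SE 0.25) and KLRD1 (CD94) by 0.77 (SE 0.29), with 0.76 from a second KLRD1 probe. These 3 were higher in 4 of 5 replicates. KLRG1 also had p under 0.05, at a probe that was not well above background on any day 2 array. Its day 5 mean (-4.01) lay below the detection floor of day 2 (-3.73). The second KLRG1 probe gave -0.17, so its probes disagree. CXCR6, a chemokine receptor of tissue-homing T and NK cells in the chemokine receptor list, was higher by 0.63 (SE 0.21) and in 4 replicates, and it was the only one of the 16 genes of that list with p under 0.05.

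The day 5 levels of these cytotoxic genes lay below those before irradiation. GZMA had mean levels of -0.32 (SD 0.66) before irradiation, -2.18 (SD 0.72) at day 2, -1.05 (SD 1.01) at day 5 and 0.35 (SD 0.82) at day 30 (n = 5 each). Over the list the median difference from the pre-irradiation arrays was -1.31 at day 2 and -0.73 at day 5. Without replicate 2, 10 of the 22 genes had p under 0.05 and the median was 0.64, and without replicate 3, 3 genes had p under 0.05 and the median was 0.45. Without replicate 4 the count was also 3, with a median of 0.32. With the normexp correction 15 genes were higher and 7 lower.

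Under the scaling used here, genes of T and B cells showed smaller differences. Of 25 T cell genes 18 were higher at day 5 and 0 had p under 0.05, with a median of 0.07. CD3D, a chain of the T cell receptor complex, differed by 0.48 (SE 0.30) and the costimulator ICOS by 0.47 (SE 0.25), and CD2 was the only T cell gene higher in all 5 replicates (0.31, SE 0.17). Other T cell genes differed less, with 0.21 for CD8A, 0.09 for CD28, 0.04 for CD3E and 0.01 for CCR7. CCR7 was lower in 4 of 5 replicates. Median scaling turned the T cell median to -0.08. With the normexp correction the T cell median was 0.33, with 24 of 25 genes higher. The median of the NK and cytotoxic list was then 0.26, so the T cell difference was not the smaller one there. Without replicate 3 the T cell median was 0.15. Of 18 B cell genes 8 were higher and 10 lower and 0 had p under 0.05, with a median of -0.03. Without replicate 3 all 18 were lower, FCRLA and CD180 had p under 0.05, and the median was -0.20. The B cell median took both signs among the scalings, and with the normexp correction it was 0.14, with 14 genes higher. CD79A, the signalling chain of the B cell receptor, differed by -0.07 (95% interval -0.51 to 0.37).

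The chains of C1q, the first component of the classical complement pathway, which macrophages and activated monocytes produce, gave large differences with 1 replicate opposed. C1QA had levels of 0.58, -1.77, 0.10, 0.43 and 1.37 at day 2 and of -2.01, -0.56, -1.77, -1.45 and -0.09 at day 5 (difference -1.32, SE 0.49, unadjusted p = 0.028 in limma). C1QB had levels of 2.48, 1.11, 2.35, 2.64 and 3.40 at day 2 and of 0.51, 2.03, 0.29, 1.08 and 2.36 at day 5 (difference -1.14, SE 0.42). Both genes were lower at day 5 in replicates 1, 3, 4 and 5 and higher in replicate 2, which had the lowest day 2 level. C1QC, detected on 5 of the 10 arrays, had the same pattern (difference -1.13, SE 0.55). The 3 probes lie at hg19 chromosome 1 positions 22965795 (C1QA), 22974089 (C1QC) and 22987795 (C1QB), and share no run longer than 6 bases. Without replicate 2 the list median was -1.71 and all 3 genes had p under 0.005. Without replicate 3 it was -1.18, and 0 had p under 0.05 without replicate 1, 3 or 4 and 1 without replicate 5. Before irradiation C1QA had a mean level of -2.78 (SD 0.59, n = 5), against 0.14 (SD 1.17) at day 2, -1.18 (SD 0.82) at day 5 and -2.32 (SD 0.68) at day 30.

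Other monocyte and neutrophil genes were mostly lower at day 5 by less than their spread. Of 13 monocyte and macrophage genes 11 were lower and 0 had p under 0.05 (median -0.34), with -0.45 (SE 0.23) for CD163, the haemoglobin scavenger receptor, and -0.74 (SE 0.34) for VCAN. CSF1R, CD14 and CX3CR1 differed by -0.28, -0.18 and -0.11, and CCR2 by 0.03. CD14, CX3CR1 and CCR2 were each higher at day 5 in 3 of 5 replicates. By replicate the medians lay between -0.91 and 0.19, the list median was -0.30 without replicate 3, and with the normexp correction it was 0.03. Of 19 mature neutrophil genes 16 were lower at day 5. The neutrophil median of -0.29 rested on replicate 3, whose own median was -1.51. Without that replicate the list median was -0.01, with 9 genes higher and 10 lower. With the normexp correction it was -0.03, with 8 genes higher and 11 lower. Of 13 neutrophil granule genes 5 were higher and 8 lower (median -0.17). The direction turned to 9 higher and 4 lower without replicate 3 (median 0.13, CTSG with p under 0.05) and to 7 and 6 without replicate 4 (median 0.11). LCN2, the iron-binding protein lipocalin 2 of secondary granules, had differences from -3.96 in replicate 3 to 1.15 in replicate 2 (mean -0.55, SE 0.69). Basophil and eosinophil genes had a median of 0.13, with 0.55 (SE 0.24) for CLC, the Charcot-Leyden crystal protein, and that median changed sign with the scaling and, to -0.05, without replicate 3.

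Interferon-response genes were lower on average and moved in opposite directions in different replicates. Of 33 genes tested 32 had a lower mean at day 5, 4 had p under 0.05 (12.1%), all of them lower, and 0 had p under 0.005. The median was -0.67. By replicate the medians were -2.12, -1.28, -0.19, 1.22 and -1.16, so the list was far lower in replicates 1, 2 and 5, near level in replicate 3 and higher in replicate 4.

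IFIT1, an antiviral protein that binds foreign RNA, had levels of 7.61, 5.21, 4.82, 1.72 and 4.60 at day 2 and of 4.81, 3.94, 4.29, 5.04 and 3.43 at day 5. The day 2 arrays were spread far more widely than the day 5 arrays, with replicate 1 highest and replicate 4 lowest at day 2. The mean difference was -0.49 with a 95% interval of -2.20 to 1.22 (unadjusted p = 0.53 in limma). ISG15, the ubiquitin-like modifier induced by interferon, had levels of 8.47, 4.76, 2.89, 0.35 and 3.28 at day 2 and of 4.54, 1.70, 3.60, 3.73 and 1.01 at day 5. Its difference was -1.04 (SE 0.97), and replicate 4 was again lowest at day 2. MX1, a GTPase that blocks viral replication, had levels of 2.92, 0.33, 0.17, -1.71 and 0.26 at day 2 and of 1.08, -1.25, 0.13, -0.49 and -2.19 at day 5 (difference -0.94, SE 0.50).

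STAT2, a subunit of the transcription factor that interferon activates, was the only list gene lower in all 5 replicates. Its levels were 8.02, 5.66, 6.10, 4.68 and 5.94 at day 2 and 6.46, 4.97, 5.54, 4.62 and 5.34 at day 5 (difference -0.70, SE 0.23, unadjusted p = 0.016 in limma). IRF9, which joins STAT2 in that factor, differed by -0.46 (SE 0.20), and by -0.14 at its second probe. The RNA sensors OAS1 and OAS3 differed by -1.47 (SE 0.56) and -1.07 (SE 0.43, second probe -0.60), both lower in 4 of 5 replicates and higher in replicate 4. Without replicate 4, 25 of the 33 genes had p under 0.05, 7 had p under 0.005 and the median was -1.19, while no probe of the array was called at the FDR limit there either. Without replicate 1, 1 gene had p under 0.05 and the median was -0.28. Without replicate 3, 4 genes had p under 0.05 and the median was -0.73, and the counts were 2 without replicate 2 and 1 without replicate 5. With the normexp correction the count was 0 and the median -0.29. It was also 0 with slide as a block and without the replicate block. Slide as a random block gave 1 gene and median scaling 8.

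**Figure D4:**
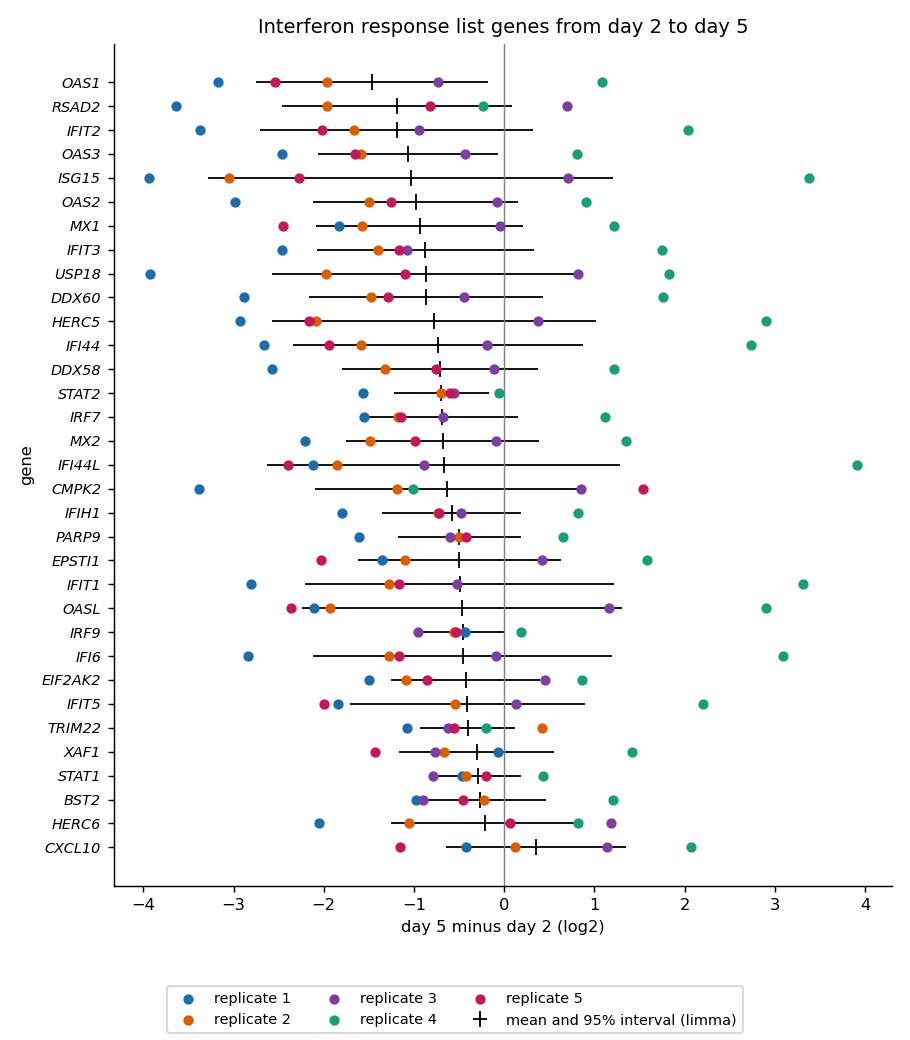
Day 5 minus day 2 difference (log2) of the 33 interferon response list genes tested, with each replicate as a coloured point and the mean with its 95% interval from limma in black. The points of replicate 4 lie above 0 for most genes and those of replicate 1 below 0, and the interval excludes 0 for OAS1, OAS3, STAT2 and IRF9.

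Genes of bacterial sensing and the interleukin 1 family were lower for 22 of 24 genes (median -0.29, 2 genes with p under 0.05). These 2 were IL1RN, the secreted antagonist of the interleukin 1 receptor, lower in all 5 replicates (-1.14, SE 0.41), and NLRC4, an inflammasome sensor of flagellin, detected on 4 of the 10 arrays (-1.43, SE 0.49). TLR4, the receptor for bacterial lipopolysaccharide, differed by -0.47 (SE 0.26), and LY96, its partner in lipopolysaccharide binding, by 0.66 (SE 0.33) in the other direction. IL1R1 differed by 0.06 (95% interval -0.59 to 0.70). Without replicate 3 the list median was -0.07 with 7 genes higher, and 0 genes had p under 0.05. With the normexp correction 11 genes were higher and 13 lower, with a median of -0.03.

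Genes induced by glucocorticoids, by acute stimulation and by DNA damage were likewise lower in most cases. All 13 glucocorticoid-responsive genes had a lower mean (median -0.43), and 1 had p under 0.05, TSC22D3, which encodes the glucocorticoid-induced leucine zipper (-0.77, SE 0.26). Replicate 2 was opposed, with a median of 0.38, and without it 6 of the 13 had p under 0.05. That count was 0 without replicate 1, 1 without replicate 3 or 4 and 2 without replicate 5. With the normexp correction it was 0, and the median was -0.19 with 2 genes higher and 11 lower. Of 20 immediate-early genes 15 were lower (median -0.31). ATF3, a stress-induced transcription factor, was lower in all 5 replicates (-0.90, SE 0.28), although its 3 other probes gave -0.38, 0.07 and -0.31. NR4A2, an orphan nuclear receptor, was higher in all 5, at -2.58, -2.64, -2.82, -2.60 and -3.14 at day 2 and -2.19, -2.15, -2.29, -2.24 and -2.34 at day 5, with groups that did not overlap (0.51, SE 0.16). A second NR4A2 probe gave 0.13, and the first gave -0.01 with the normexp correction. Of 23 p53 and DNA damage response genes 20 were lower and 0 had p under 0.05 (median -0.18). With the normexp correction 9 of these genes were higher and 14 lower, with a median of -0.05 against -0.06 over all probes. CDKN1A, the cell cycle inhibitor p21, had differences from -2.81 in replicate 1 to 0.67 in replicate 3 (mean -0.69, SE 0.46). BBC3, the death inducer PUMA, differed by -0.52 (SE 0.24) and MDM2, the inhibitor of p53, by -0.27 (SE 0.17).

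Cytosolic ribosomal protein genes were higher by small amounts. All 79 genes tested had a higher mean at day 5, 10 had p under 0.05 (12.7%) and 0 had p under 0.005, with a median of 0.32. By replicate the medians were 0.35, 0.19, -0.00, 1.08 and -0.03, so the list value came mostly from replicate 4. RPL11, a large subunit protein, had levels of 5.39, 7.02, 6.22, 5.69 and 7.04 at day 2 and of 6.20, 7.82, 6.26, 7.89 and 7.14 at day 5 (difference 0.79, SE 0.31, unadjusted p = 0.036 in limma). It was higher in all 5 replicates, though by 0.04 in replicate 3 and 0.10 in replicate 5. RPL31, RPS24, RPS20 and RPL17 differed by 0.79, 0.75, 0.69 and 0.67. Ribosomal protein genes have many near-identical pseudogenes, so part of a probe's signal may be shared, which was not tested. Without replicate 4 the median was 0.13, 69 genes were higher and 0 had p under 0.05, and without replicate 3 it was 0.39 with 15 genes. The count was 0 without replicate 1, 1 without replicate 2 and 17 without replicate 5. Median scaling, which moved the median of all probes from 0.03 to -0.12, gave 72 genes higher and 7 lower, with 1 gene with p under 0.05. The normexp correction gave 31 such genes and a median of 0.69, slide as a block 22, the fit without the replicate block 3 and slide as a random block 0. Respiratory chain and ATP synthase genes were higher for 66 of 78 genes (median 0.14), 38 of 78 under median scaling, and proteasome genes had a median of 0.01.

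Clustered histone genes, which encode the core and linker histones made mainly in S phase, did not share one direction. Of 61 genes tested 27 were higher and 34 lower at day 5 (median -0.12), and 9 had p under 0.05, 1 higher and 8 lower. The higher one was HIST1H4E (0.71, SE 0.21), higher in all 5 replicates. Among the lower ones, HIST1H2BM, HIST1H2BG and HIST1H2BI differed by -0.56, -0.53 and -0.53. HIST1H2AC differed by -0.61, while its 2 other probes gave 0.21 and -0.19. H2B genes encode nearly the same core histone, and some of their array probes overlap in sequence. Of 136 pairs of H2B probes, 8 shared a run of at least 20 bases, and the median of the longest shared run was 6 bases. The probes of HIST1H2BI (hg19 chromosome 6, 26273375 to 26273434, plus strand) and HIST1H2BM (27783003 to 27783062, plus strand) are shown because they share a run of 23 bases, in capitals in the 30 bases printed of each 60-base probe, 5′ to 3′ as the array files list them.
HIST1H2BI: attATGAACTCCTTCGTCAACGACATtttc
HIST1H2BM: atcATGAACTCCTTCGTCAACGACATcttt
The longest run that a pair of H2B probes shared was 32 bases, between HIST1H2BD and HIST1H2BK. How far one H2B transcript adds to the signal of another gene's probe was not tested. Without replicate 3, 2 histone genes had p under 0.05, against 1 without replicate 1 or 4 and 14 without replicate 5, and with the normexp correction the list median was 0.12.

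Red cell and cell cycle genes showed wide scatter between replicates and no common direction. Of 20 erythroid genes 16 had a higher mean at day 5 and 0 had p under 0.05 (median 0.26). ALAS2, the first enzyme of haem synthesis in red cells, was higher by 1.83 in replicate 3 and 2.04 in replicate 5 and lower by 0.33 to 0.67 in the other 3. The erythroid median was -0.16 without replicate 5, 0.04 without replicate 3 and 0.76 without replicate 4, where all 20 genes were higher. HBB differed by 0.20 (SE 0.17), after globin depletion in all samples. Of 19 proliferation genes 12 were higher and 0 had p under 0.05. RRM2, a subunit of ribonucleotide reductase, had differences of -0.71, 1.08, -0.56, 2.37 and 1.40 and was detected on 4 of the 10 arrays. Heat shock and chaperone genes had a median of 0.10, MHC class II genes of 0.14 and plasma cell genes of -0.31, with 0, 1 and 0 genes with p under 0.05, the 1 being HLA-DPA1 (-0.52, second probe -0.15). Without replicate 3 these medians were 0.04, -0.02 and -0.26. The median was then 0.14 for proliferation genes, -0.29 for glucocorticoid-responsive genes, -0.21 for immediate-early genes, -0.18 for p53 genes, 0.19 for respiratory chain genes, 0.06 for proteasome genes and -0.05 for histone genes. For chemokine receptor genes it turned from -0.05 to 0.02.

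**Figure D5:**
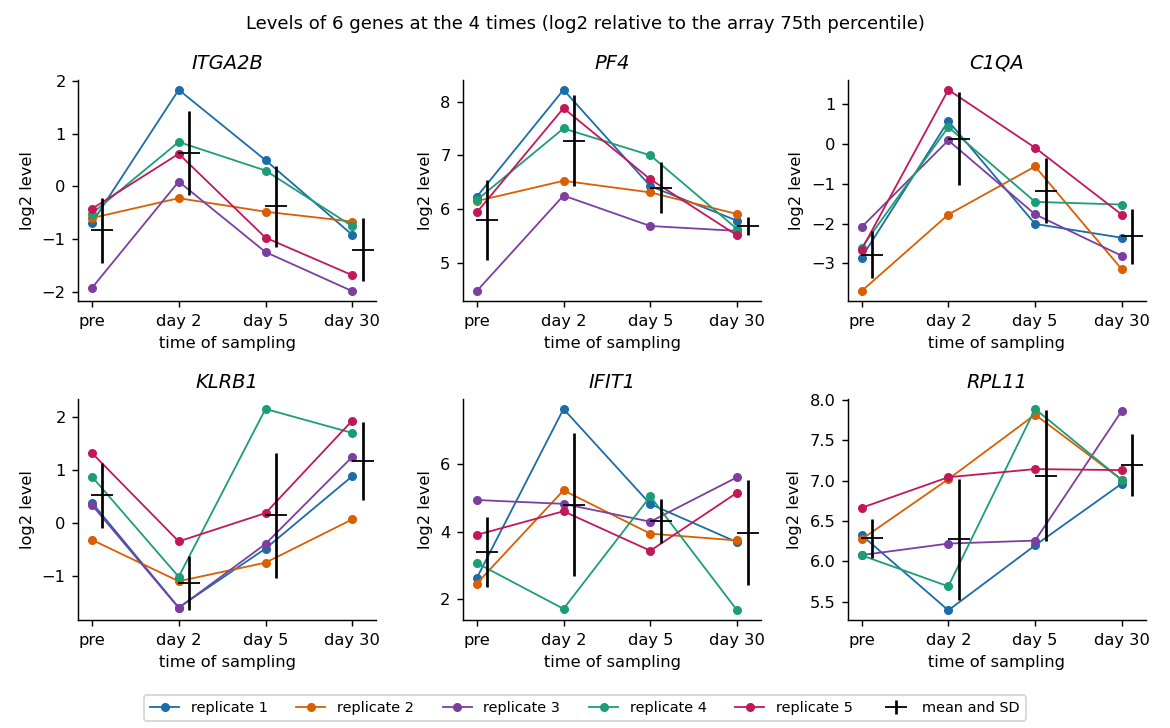
Log2 level, relative to the 75th percentile of each array, of 6 genes at the 4 sampling times, with 1 coloured line per replicate number and the mean with SD (n = 5) in black. From day 2 to day 5 ITGA2B and PF4 were lower and KLRB1 and RPL11 higher in all 5 replicates, C1QA was higher in replicate 2 alone, and IFIT1 was higher in replicate 4 alone.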

How the data were processed

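Whole blood RNA of irradiated macaques was measured on 20 one-colour arrays, 5 at each of 4 times, and the 10 arrays of day 2 and day 5 were compared. The authors scanned the arrays and extracted them with Agilent Feature Extraction (version 10.7 by the submitters' processing notes). The deposited scanner files hold the processed signal, a background-subtracted intensity on a linear scale, and the deposited value table holds log2 values of the same arrays, used as an alternative only. The number of arrays limits the precision.

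Signals were turned into log2 and scaled to the 75th percentile within each array, control spots and outlier spots were left out, and spots of a probe were averaged. Probes well above background on at least 5 of 20 arrays, with at least 4 pairs measured, were tested with limma 3.58.1 in R 4.3.3, with the replicate number as a block. Calls needed p under 0.005 and FDR under 10%, the study's criteria. The fit was tested on simulated data. One probe stood for each gene in the lists, and values of other probes are given for some genes. The text names the 10 largest increases and decreases among genes with p under 0.005 and one direction in every pair (each gene at its probe of smallest p), the key genes of each list, and list genes with p under 0.005. The comparison, the 24 gene lists and the tests were chosen with earlier results of these data known. Some results on single genes are not reported here. Alternatives covered scaling, background correction, the filter on dim probes, the deposited values, the blocks, array weights, and each replicate left out.

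Over all probes, the deviations of same-numbered day 2 and day 5 arrays from their group means correlated at 0.02 to 0.46 (median 0.25). Arrays of different numbers gave -0.37 to 0.27 (median -0.08). Of the 5 day 5 arrays, 3 were most like the day 2 array of their own number. Of the 5 day 2 arrays, 2 were most like the day 5 array of their own number. The 200 probes most alike between same-numbered pre-irradiation and day 30 arrays gave another check. Over these, same-numbered day 2 and day 5 arrays correlated at 0.81, 0.79, 0.14, 0.16 and 0.40 in replicates 1 to 5. With pre-irradiation, replicate 3 gave 0.15 at day 2 and 0.78 at day 5. Replicate 4 gave 0.78 and 0.24, and its day 5 array 0.38 with pre-irradiation replicate 5. Labels do not tie a number to an animal, so a difference by replicate need not be within 1 animal. Each limma p-value set a probe's mean paired difference against the spread of that difference between these pairs. That spread was adjusted by limma with the spread of all probes tested.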

Additional observations from a re-analysis of the deposited data

Results flagged for a closer look

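Among 163 sets of 5 values, 5 held 1 value far from the other 4, where chance flags about 1 in 20 groups, or 8.15 of them. The share of spots well above background was 67.3% on the day 5 array of replicate 3, against 55.9% to 58.5% on the other day 5 arrays. The median difference of the respiratory chain and ATP synthase genes was 0.56 in replicate 4, against -0.08 to 0.08 in the others. RPS27, a small subunit ribosomal protein gene, was higher by 1.09 in replicate 4, against -0.09 to 0.15. FOS, an immediate-early transcription factor, differed by -2.06 in replicate 3, against -0.42 to -0.08. FRRS1L differed by 2.02 in replicate 5, against 1.001 to 1.24, at a probe that was not well above background on any day 2 array.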

How the results depend on the processing

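The count of 0 called probes held in each of the 20 alternatives run. The number with p under 0.005 (57, 17 higher and 40 lower) was 92 with median scaling (18 and 74), 6 with normexp (4 and 2), 86 without the filter (55 and 31), 96 with all 20 arrays in one fit (34 and 62), 8 with slide as a random block (4 and 4), 24 by the paired t-test of each probe, and 17 to 145 with 1 replicate left out, lowest without replicate 1 and highest without replicate 2. Without the replicate block it was 24 (16 and 8). With the deposited values it was 46 of 5766 probes (6 and 40), against 28.8 expected. The number with p under 0.05 (692) was 287 with normexp, 1209 without the filter, 249 of 5766 probes with the deposited values, 346 without the replicate block, 173 with slide as a random block, and 431 to 1126 with 1 replicate left out. With normexp the list medians moved to 0.13 for chemokine receptors, 0.41 for the respiratory chain, 0.31 for the proteasome and 0.12 for histones. The causes were not tested. Of 135 genes, 37 took another sign under at least 1 alternative, as did 14 of 24 list medians. Replicate and slide could not both be fitted as fixed blocks. The fit with slide as a random block estimated a correlation of -0.49 between the day 2 and day 5 array of a slide. Its counts depend on that estimate. Of the 10 largest increases, 7 were at probes not well above background on all 10 arrays.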
